A study of Mus musculus with 4 samples.

Results

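The mitochondrial ribosomal proteins were taken as the protein-coding mouse genes whose symbols begin with Mrpl or Mrps followed by a digit, which gave 78 of the 55385 genes in the table. By symbol, 49 belong to the large subunit (Mrpl) and 29 to the small subunit (Mrps). RNA was sequenced in bulk from 4TO7 cells, a mouse mammary carcinoma line, recovered by enzymatic digestion of tumors grown in Balb/c mice. The resistant group has 2 libraries, from tumors resistant to immunotherapy with anti-PD-L1, an antibody against a checkpoint ligand that restrains T cells, and the control group has 2 libraries from control tumors. The labels conflict on treatment: all 4 samples, resistant and control alike, are labelled untreated, while the treatment protocol of the samples names the antibody given in vivo. The series calls the libraries of a group biological replicates, and nothing in the labels ties them to separate animals, so every p-value measures the spread between these libraries. The labels name no genetic change in either group and no mouse age.

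Mitochondrial ribosomes translate the few proteins that mitochondrial DNA encodes, all of them parts of the respiratory chain and ATP synthase. The ribosomal proteins themselves are encoded in the nucleus, made in the cytosol and imported, and they assemble on ribosomal RNAs transcribed from mitochondrial DNA. The small subunit holds the decoding site that reads the mRNA, and the large subunit holds the peptidyl transferase centre and the tunnel through which the new protein leaves towards the inner membrane. Many of these proteins have a bacterial homologue, while others are found only in mitochondrial ribosomes.

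The 4 libraries held between 45666470 and 49592054 reads, and the 14238 genes that averaged 10 or more normalized counts were tested. Of these, 758 were called higher and 674 lower in resistant cells at an adjusted p under 0.05 (limma, Benjamini-Hochberg), which is 10.1% of the tested genes, 5.32% for higher calls and 4.73% for lower calls. The epithelial keratins Krt8 and Krt18 were abundant in every library, with 15137 and 17275 normalized counts of Krt8 in resistant cells against 21116 and 12649 in control cells, while Krt14 was at 0 in all 4. Of the 7 leukocyte markers, the summed level was 10585 and 9997 normalized counts in resistant libraries against 3240 and 6364 in control libraries. Nearly all of that sum was Cd68, which was called higher, whereas the defining leukocyte marker Ptprc lay at 0 and 2.15 normalized counts in resistant libraries against 1.92 and 1.01 in control libraries. The 2 red cell markers were at 0 in all 4 libraries and the 2 adipocyte markers summed to at most 4.29. The other marker lists also held called genes: Vwf and Des were higher, and Epcam and Dcn lower, in resistant libraries. The part of these markers in the results that follow was not tested.

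Transcripts for the mitochondrial ribosome as a whole lay close together in resistant and control cells, with a few exceptions. Of the 77 members tested, 2 were called higher in resistant cells (Mrpl13 and Mrps5), 1 was called lower (Mrpl24) and 74 were not called. The called share was 3.90%, against 10.1% of all tested genes and 8.56% of the 4542 tested genes whose mean level lay between the 10th and 90th percentile of the members' levels. The median log2 fold change over the members, resistant minus control, was 0.04, with quartiles of -0.06 and 0.20, against a median of 0.00 and quartiles of -0.22 and 0.23 over all tested genes. Only 3 members (3.90%) lay beyond 0.5 in size on the log2 scale, against 21.9% of all tested genes and 11.0% of the genes of like level. Conversely, 50 members (64.9%) lay within 0.2 of no change, against 45.9% of all tested genes and 55.1% of the genes of like level. In bulk RNA a change in the share of some cells and a change in the RNA per cell cannot be told apart.

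Among the members, 46 had a positive and 31 a negative log2 fold change. In 31 members (40.3%) both resistant libraries lay above both control libraries, against 28.4% of all tested genes, and in 12 members (15.6%) both lay below, against 28.3%. With values scaled to total reads, 23 of the 77 tested members lay above and 17 below, beside 24.5% and 32.8% of all tested genes. With median centring 29 of the 77 lay above and 16 below, beside 25.3% and 32.0% of all tested genes. The split between higher and lower members thus moved with the scaling, as did the shares over all tested genes. In each scaling members lay above more often, and below less often, than all tested genes did. That difference was not tested. At an unadjusted p under 0.05, 12 members (15.6%) were higher, against 13.8% of all tested genes, and 3 members (3.90%) were lower, against 12.6%. Summed over all 78 members, the level was 128750 and 118288 normalized counts in resistant libraries against 115046 and 117890 in control libraries. As a share of all reads the members took 0.269% and 0.241% in resistant libraries against 0.241% and 0.253% in control libraries. These summed values overlapped between the groups only as a share of reads, since resistant replicate 2 lay just above the higher control library in normalized counts.

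The medians of the subunits differed by less than the spread between replicates. The large subunit had a median log2 fold change of 0.05 over 48 tested members, with 1 called higher and 1 called lower. The small subunit had a median of 0.03 over 29 tested members, with 1 called higher and 0 called lower. The difference between the 2 medians was 0.02, and the SD of that difference between replicates was 0.03. Mrps18a and Mrps30 sit in the large subunit and Mrps36 in neither, and with members placed accordingly the small median was 0.05 and the difference -0.0014. With values scaled to total reads the large median was 0.01 and the small median -0.01, and the median of all tested genes moved to -0.04. In summed normalized counts, large subunit members reached 87229 and 79614 in resistant libraries against 76337 and 79017 in control libraries. Small subunit members summed to 41521 and 38673 normalized counts in resistant libraries against 38709 and 38873 in control libraries, so the groups overlapped. By origin, the 46 members with a bacterial homologue had a median log2 fold change of 0.03 and held all 3 called genes. The 31 tested members whose proteins carry a mitochondrion-specific name in ribosome nomenclature had a median of 0.10. They include Mrps18a and Mrps18b, diverged relatives of bacterial S18, and Mrps36, which is described further on. None of the 31 was called by limma, and at an unadjusted p under 0.05, 4 (12.9%) were higher and 0 lower, against 13.8% and 12.6% of all tested genes. Leaving out resistant replicate 2 moved the large median to 0.14 and the small median to 0.17.

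**Figure D1:**
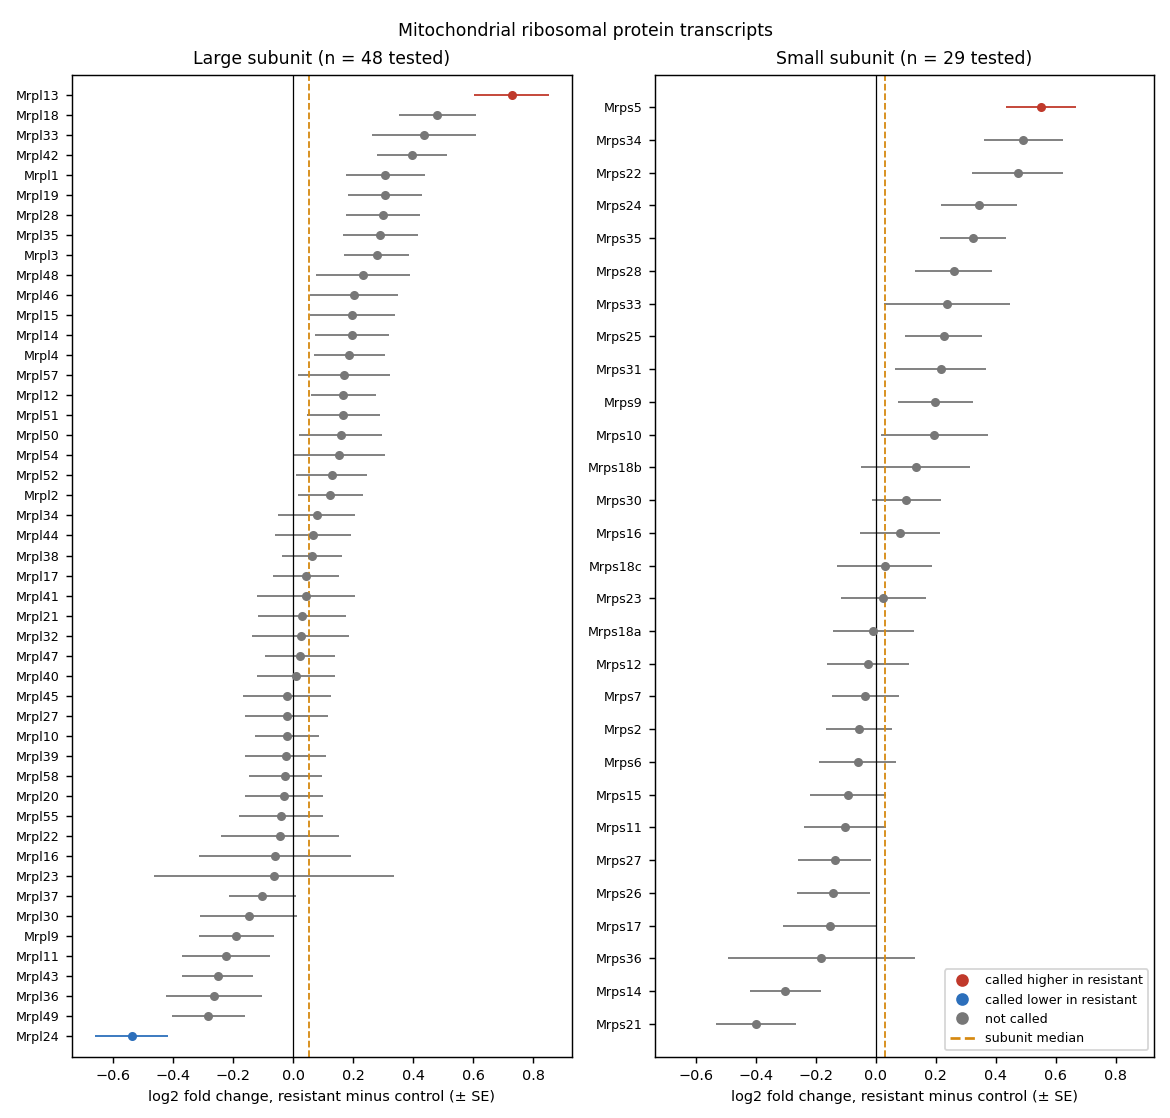
Log2 fold change, resistant minus control, with its standard error (x axis) for each tested member (rows), ordered within the large subunit (left, 48 members) and the small subunit (right, 29 members). Red points were called higher, blue called lower and grey not called, and the dashed line is the subunit median, 0.05 for the large and 0.03 for the small subunit. Most members lie within 0.2 of 0, and Mrpl13, Mrps5 and Mrpl24 stand at the ends.

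Mrpl13, a large subunit protein with a bacterial homologue (L13), had the highest fold change of the members. It lies on chromosome 15, minus strand, at 55534094 to 55557748 (GRCm38, ENSMUSG00000022370.13). Its level was 8614 and 7741 normalized counts in resistant libraries against 5381 and 4515 in control libraries. Both resistant libraries lay well above both control libraries. The log2 fold change was 0.73 ± 0.12 (SE), with an adjusted p of 0.0135 (limma). Mrpl13 also made up 6.69% and 6.54% of all reads on the members in resistant libraries against 4.68% and 3.83% in control libraries. An exon of Mrpl13 overlaps the oppositely transcribed Mtbp, which had 4512 and 4131 normalized counts in resistant libraries against 3393 and 3330 in control libraries, a log2 fold change of 0.36 ± 0.11 (adjusted p = 0.0772, limma). The sources used here do not say whether counting used strand, and without it reads in the overlap cannot be told apart. Without resistant replicate 1 the adjusted p of Mrpl13 was 0.116 at a log2 fold change of 0.65.

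Mrps5 encodes a small subunit protein whose bacterial homologue, S5, sits near the entrance of the mRNA channel. The gene lies on chromosome 2, plus strand, at 127587222 to 127606829 (ENSMUSG00000027374.12), and its exons overlap no other gene. Its level was 1599.95 and 1594.95 normalized counts in resistant libraries against 1081 and 1101 in control libraries. The replicates were close together and the groups far apart. The log2 fold change was 0.55 ± 0.12 with an adjusted p of 0.0278 (limma). The call was lost when either resistant library was left out, with an adjusted p of 0.282 without replicate 1 and 0.263 without replicate 2, while the fold change stayed at 0.55 in both.

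Mrpl24 was the member that fell. It encodes a large subunit protein whose bacterial homologue, L24, lies by the exit of the polypeptide tunnel. The gene lies on chromosome 3, plus strand, at 87919506 to 87923672 (ENSMUSG00000019710.13). It had 2663 and 2399 normalized counts in resistant libraries against 3404 and 3960 in control libraries. Both resistant libraries lay below both control libraries. The log2 fold change was -0.54 ± 0.12 with an adjusted p of 0.0352 (limma). The oppositely transcribed Rrnad1 overlaps it and had 999.7 and 852 normalized counts in resistant libraries against 1043 and 1267 in control libraries, with a log2 fold change of -0.32 ± 0.15 (adjusted p = 0.240, limma). The call was lost without resistant replicate 1 (adjusted p = 0.148) and without resistant replicate 2 (adjusted p = 0.300).

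**Figure D2:**
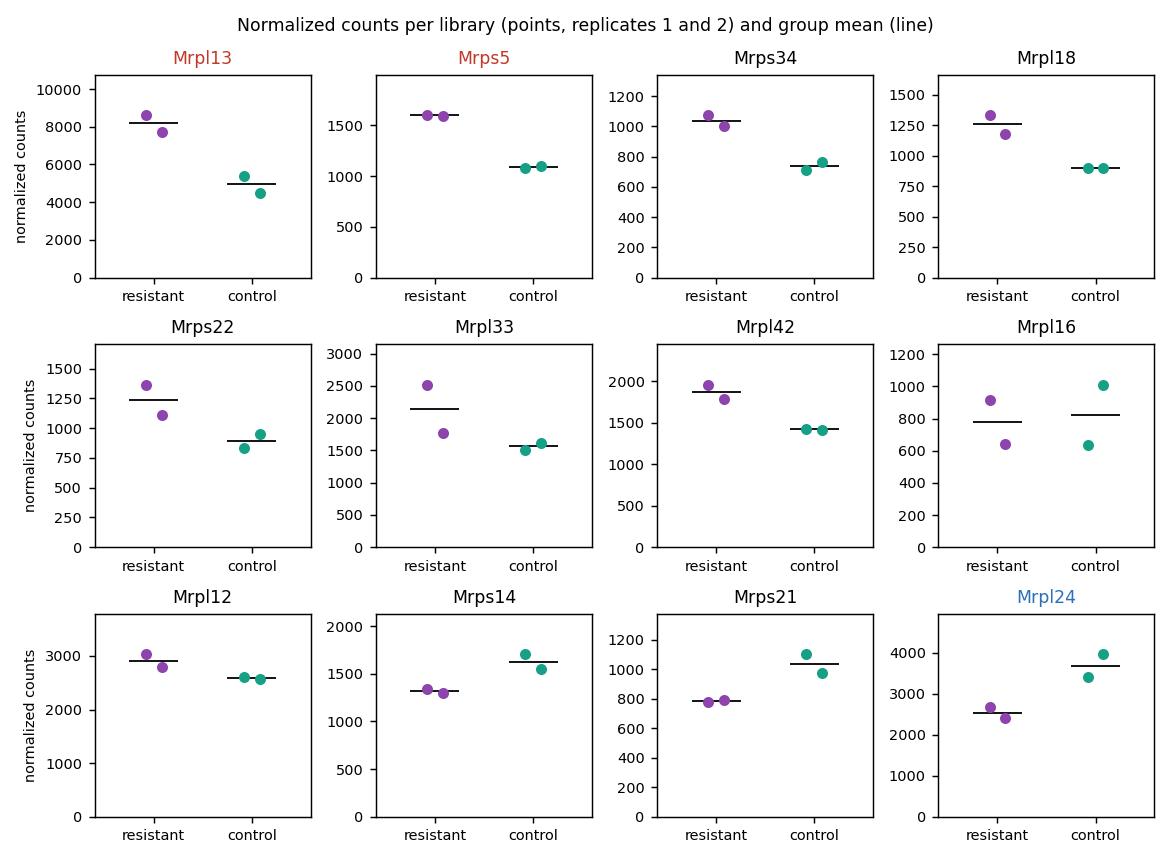
Normalized counts (y axis, starting at 0) of 12 members in each library, with resistant libraries left (purple) and control libraries right (green), points for replicates 1 and 2 and a line at the group mean. Mrpl13 and Mrps5 (red titles) were called higher and Mrpl24 (blue title) lower. Replicates of Mrpl16 lie further apart within each group than the 2 group means do. Mrpl12 and Mrpl16 were chosen for display after their values were seen.

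Promoter sequences from RefSeq on GRCm38.p6, spanning 250 bases before to 50 after the transcript start, were available for 69 of the 78 members. Entries were not found for Mrpl13, Mrpl15, Mrpl19, Mrpl38, Mrpl4, Mrpl54, Mrps28, Mrps34 and Mrps35. Shown are the called members Mrpl24 (chr3:87919294-87919593, plus strand) and Mrps5 (chr2:127587176-127587475, plus strand). Beside them stand Mrpl36 (chr13:73330759-73331058, plus strand) and Mrps21 (chr3:95871465-95871764, minus strand), which hold more kinds of the motifs searched. All are written 5′ to 3′ on the strand of the gene, and capitals mark the matches to the motifs described next.
Mrpl24: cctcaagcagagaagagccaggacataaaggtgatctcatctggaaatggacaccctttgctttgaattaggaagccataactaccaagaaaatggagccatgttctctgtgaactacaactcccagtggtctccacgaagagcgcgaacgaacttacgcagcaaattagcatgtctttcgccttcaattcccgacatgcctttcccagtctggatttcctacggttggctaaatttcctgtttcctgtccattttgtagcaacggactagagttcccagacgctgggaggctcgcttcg
Mrps5: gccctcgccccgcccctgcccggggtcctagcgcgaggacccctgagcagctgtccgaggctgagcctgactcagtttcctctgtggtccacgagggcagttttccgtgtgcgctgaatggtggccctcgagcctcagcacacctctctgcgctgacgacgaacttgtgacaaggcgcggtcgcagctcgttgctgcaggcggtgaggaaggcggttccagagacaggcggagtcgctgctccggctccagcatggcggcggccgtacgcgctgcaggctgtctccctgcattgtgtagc
Mrpl36: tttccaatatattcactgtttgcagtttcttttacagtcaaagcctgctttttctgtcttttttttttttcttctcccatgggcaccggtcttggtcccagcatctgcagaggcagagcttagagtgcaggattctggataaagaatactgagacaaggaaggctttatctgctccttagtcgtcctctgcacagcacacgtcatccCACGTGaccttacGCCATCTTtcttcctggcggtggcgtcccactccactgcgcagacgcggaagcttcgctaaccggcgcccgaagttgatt
Mrps21: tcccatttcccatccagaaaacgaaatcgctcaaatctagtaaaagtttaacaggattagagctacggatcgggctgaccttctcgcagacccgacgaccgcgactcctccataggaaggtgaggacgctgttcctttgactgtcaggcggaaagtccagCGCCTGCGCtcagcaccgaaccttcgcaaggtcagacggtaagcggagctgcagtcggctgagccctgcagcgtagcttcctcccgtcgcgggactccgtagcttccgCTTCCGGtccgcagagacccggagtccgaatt

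The motifs searched on both strands were those of factors known to act on nuclear genes for mitochondrial proteins: NRF1 (CGCNTGCGC), the ETS family to which GABPA belongs (CCGGAAG), YY1 (AAGATGGC) and the E-box that MYC binds (CACGTG). In the sequences above, Mrpl36 holds an E-box and a YY1 match on the reverse strand (GCCATCTT), and Mrps21 holds an NRF1 match (CGCCTGCGC) and an ETS match on the reverse strand (CTTCCGG). These letters do not occur in the windows of Mrpl24 and Mrps5. A gene was counted if any of its promoters held a match. An ETS match stood in 26 of the 69 members (37.7%), against 20.0% of tested genes and 9.93% of all 27025 genes with a promoter. NRF1 matches stood in 16 members (23.2%), against 15.1% of tested genes and 7.03% of all genes with a promoter. YY1 matches stood in 12 members (17.4%), against 5.18% of tested genes and 3.19% of all genes with a promoter. The E-box stood in 5 members (7.25%), against 11.6% of tested genes and 8.09% of all genes with a promoter. At least 1 motif was found in 46 members (66.7%), against 41.9% of tested genes, and 13 members had 2 or more kinds. The members' log2 fold changes differed little by motif: the medians with and without a match were 0.00 and 0.03 for NRF1, 0.04 and -0.02 for ETS, -0.03 and 0.04 for YY1, and -0.03 and 0.03 for the E-box.

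Below Mrpl13, the large subunit members with the highest fold changes did not pass the threshold. Mrpl18, a relative of the bacterial protein that binds 5S rRNA, had 1334 and 1183 normalized counts in resistant libraries against 898 and 902 in control libraries. The groups did not overlap, the log2 fold change was 0.48 ± 0.13 and the adjusted p was 0.0593 (limma). Its exons overlap the oppositely transcribed Tcp1, a subunit of the cytosolic chaperonin, which was itself called higher with a log2 fold change of 0.57 ± 0.13 (adjusted p = 0.0330, limma). Mrpl33, a small protein with a bacterial homologue, had 2518 and 1772 normalized counts in resistant libraries against 1505 and 1621 in control libraries (log2 fold change 0.44 ± 0.17). Its resistant replicates lay far apart. Mrpl42, found only in mitochondrial ribosomes, had 1960 and 1783 normalized counts in resistant libraries against 1430.4 and 1412 in control libraries (0.40 ± 0.12, adjusted p = 0.0794, limma). Mrpl1, whose bacterial homologue forms the mobile L1 stalk, had 1435 and 1239.9 normalized counts in resistant libraries against 1049 and 1108 in control libraries (0.31 ± 0.13, adjusted p = 0.190, limma). In all 4 of these genes both resistant libraries lay above both control libraries, as in 28.4% of all tested genes. The 4 were named for their high fold changes, so this is no separate support.

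At the low end of the large subunit, after Mrpl24, stood Mrpl49, a protein found only in mitochondrial ribosomes. It had 1406 and 1256 normalized counts in resistant libraries against 1618 and 1615 in control libraries (log2 fold change -0.28 ± 0.12, adjusted p = 0.190, limma). Mrpl36, the homologue of a very small bacterial protein, L36, had 715 and 563 normalized counts in resistant libraries against 759 and 764 in control libraries (-0.26 ± 0.16). Mrpl43 had 1428 and 1389 normalized counts in resistant libraries against 1599.5 and 1758 in control libraries (-0.25 ± 0.12), and Mrpl11, part of the stalk base in bacteria, had 869 and 744 normalized counts in resistant libraries against 887 and 996 in control libraries (-0.22 ± 0.15). In each of the 4 genes both resistant libraries lay below both control libraries, as in 28.3% of all tested genes, and none passed the threshold. The 4 were named for their low fold changes, so the lack of overlap is no separate support. Mrpl49, Mrpl36 and Mrpl43 overlap Syvn1, Ndufs6 and Twnk on the opposite strand, whose log2 fold changes were -0.36, 0.01 and -0.04.

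Members in functional parts of the large subunit are given as examples chosen after their values were seen. At the tunnel exit, where Mrpl24 fell, Mrpl22, Mrpl45 and Mrpl47 had log2 fold changes of -0.04, -0.02 and 0.02, none of them called; Mrpl45 helps to tether the ribosome to the inner membrane. Among the proteins of the stalk that recruits translation factors, Mrpl10 and Mrpl12 had log2 fold changes of -0.02 and 0.17. Mrpl12 had 3032 and 2791 normalized counts in resistant libraries against 2610.1 and 2569.8 in control libraries, with no overlap and an adjusted p of 0.373 (limma). In the central protuberance, Mrpl38, Mrpl46 and Mrpl48 had log2 fold changes of 0.06, 0.20 and 0.23. Near the peptidyl transferase centre, Mrpl2 and Mrpl27 had log2 fold changes of 0.12 and -0.02. Mrpl44, which resembles RNase III, and Mrpl58, which has kept the peptidyl-tRNA hydrolase activity of a release factor, had log2 fold changes of 0.07 and -0.03. Apart from Mrpl24, none of the members named in these groups was called, and Mrpl10, Mrpl22, Mrpl44, Mrpl45, Mrpl47 and Mrpl58 changed sign in at least 1 fit that left out a library.

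In the small subunit, 4 members followed Mrps5 at the high end without passing the threshold. Mrps34, a protein found only in mitochondrial ribosomes, had 1074 and 1003 normalized counts in resistant libraries against 709.9 and 768 in control libraries (log2 fold change 0.49 ± 0.13, adjusted p = 0.0598, limma). Mrps22, also found only in mitochondrial ribosomes, had 1365 and 1110.1 normalized counts in resistant libraries against 829.99 and 948 in control libraries (0.47 ± 0.15, adjusted p = 0.0984, limma). The groups did not overlap for either gene. Mrps24, the counterpart of bacterial S3, had 1154 and 1075 normalized counts in resistant libraries against 893 and 861 in control libraries (0.34 ± 0.13). Mrps35 had 1944 and 1993 normalized counts in resistant libraries against 1592 and 1552 in control libraries (0.32 ± 0.11, adjusted p = 0.114, limma). Resistant libraries again lay above control libraries in both, as in 28.4% of all tested genes. All 4 were named for their high fold changes, so this is no separate support. Exons of Mrps34 overlap Mapk8ip3 on the opposite strand (log2 fold change 0.39), and exons of Mrps24 overlap Urgcp on the same strand (-0.18).

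At the low end of the small subunit, Mrps21, homologue of a small bacterial protein, had 781 and 792 normalized counts in resistant libraries against 1101 and 975 in control libraries. Its log2 fold change was -0.40 ± 0.13 (adjusted p = 0.109, limma), and the groups did not overlap. Mrps14, whose bacterial homologue belongs to the head of the small subunit, had 1337 and 1302 normalized counts in resistant libraries against 1706 and 1550.2 in control libraries (-0.30 ± 0.12, adjusted p = 0.161, limma), again without overlap. Mrps17 had 2468 and 1935 normalized counts in resistant libraries against 2209 and 2678 in control libraries (-0.15 ± 0.16). Mrps26 had 1956 and 1804 normalized counts in resistant libraries against 1947 and 2208 in control libraries (-0.14 ± 0.12). In both of these the groups overlapped. The members at this end were named for their low fold changes, and 28.3% of all tested genes had both resistant libraries below both control libraries. The 3 mammalian relatives of bacterial S18, chosen after their values were seen, had log2 fold changes of -0.01 (Mrps18a), 0.13 (Mrps18b) and 0.03 (Mrps18c). Mrps12, which reaches into the decoding centre, likewise chosen afterwards, had a log2 fold change of -0.03.

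A few members were hardly measured. Mrpl53 was left out of the test, with 0 and 2 reads in resistant libraries against 1 and 4 in control libraries. Its gene overlaps the protein-coding model Gm42688 on the same strand, which had 92.7 and 100.8 normalized counts in resistant libraries against 84.5 and 96.8 in control libraries, so the low count of Mrpl53 is uncertain. Mrpl23, a tunnel exit protein, had 27 and 24 reads in resistant libraries against 21 and 38 in control libraries, and Mrps36 had 29 and 34 reads in resistant libraries against 39 and 37 in control libraries. Mrps36 is now known as a subunit of the oxoglutarate dehydrogenase complex. Mrpl23 and Mrps36 were tested and not called, at log2 fold changes of -0.06 ± 0.40 and -0.18 ± 0.31 (SE). With so few reads, differences in these genes could be missed, and the untested Mrpl53 allows no statement. Both Mrpl23 and Mrps36 have processed pseudogenes, as does Mrpl48, and reads shared between near-identical copies could be split or dropped in counting. Mrpl48-ps had 94.8 and 83.7 normalized counts in resistant libraries against 56.7 and 66.6 in control libraries, and Mrpl23-ps1 had at most 8.15 in any library. In all, 33 of the 78 members share exon sequence with another annotated gene, 8 of them with one on the same strand and 28 with one on the opposite strand. Among the members with no such overlap, the large subunit median was 0.04 and the small subunit median 0.05.

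Levels between genes were compared per kilobase of exon, as the mean over the 4 libraries. On that scale the members had a median level of 516 normalized counts per kb, against 272 over all tested genes. The large subunit median level was 608 normalized counts per kb in resistant and 617 in control cells, and the small subunit median level was 431 in resistant and 465 in control cells. The order of the subunits was thus the same in both groups. The highest level belonged to Mrps6, at 3159 normalized counts per kb. Its exons overlap Slc5a3, an inositol transporter gene on the same strand, which was called lower (log2 fold change -0.60, adjusted p = 0.0406, limma), so part of the reads given to either gene could come from the other. Mrps6 itself had 4778 and 4672 normalized counts in resistant libraries against 5515 and 4406 in control libraries. Next in level came Mrpl28 at 2218, Mrpl2 at 1949 and Mrpl10 at 1942 normalized counts per kb, and in the small subunit Mrps21 at 1234 and Mrps23 at 1189.9. Mrpl28 had 3578 and 3174 normalized counts in resistant libraries against 2557 and 2932 in control libraries (log2 fold change 0.30 ± 0.12, adjusted p = 0.172, limma). For Mrpl10 the values were 3340.5 and 3240.3 normalized counts in resistant libraries against 3479 and 3206 in control libraries, and for Mrps23 2093 and 1662.5 in resistant libraries against 1753 and 1916 in control libraries. The groups overlapped for Mrps6, Mrpl10 and Mrps23 and did not overlap for Mrpl28.

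Replicates of a group differed in the members too. In 63 of the 77 tested members (81.8%) resistant replicate 1 lay above resistant replicate 2, against 45.8% of all tested genes. The median log2 difference between the resistant replicates was 0.11 over the members, which is larger than the median of 0.04 between resistant and control cells. It ranged from -0.29 in Mrps36 to 0.51 in Mrpl33. Between the control replicates the median difference, replicate 1 minus replicate 2, was -0.04, with 34 members positive and 43 negative. The widest control difference was in Mrpl23, at -0.89. Over the members these replicate differences had an SD of 0.147 in resistant and 0.205 in control libraries, against 0.306 in resistant and 0.453 in control libraries over all tested genes. Mrpl16, chosen after its values were seen, had 913 and 645 normalized counts in resistant libraries against 633 and 1011 in control libraries.

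For each member the median log2 fold change of the other tested genes within 5 Mb was taken, over 12 to 215 neighbours. These local medians ran from -0.27 to 0.47. Over the 77 tested members, the log2 fold change of a member and its local median had a Pearson r of 0.739 and a Spearman rho of 0.681. Without Mrpl13 they were 0.713 and 0.668. Over 14227 tested genes the same relation had an r of 0.199 and a rho of 0.309, and over the genes of like level an r of 0.319 and a rho of 0.416. These are descriptions across genes, which share the same 4 libraries and whose windows overlap, and not tests. A member and its local median had the same sign in 53 of 77 members (68.8%) and opposite signs in 24, against the same sign in 66.5% of the genes of like level and 62.9% of all tested genes. Subtracting the local median lowered the SD of the members' log2 fold changes to 0.152, against 0.225 without subtraction.

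**Figure D3:**
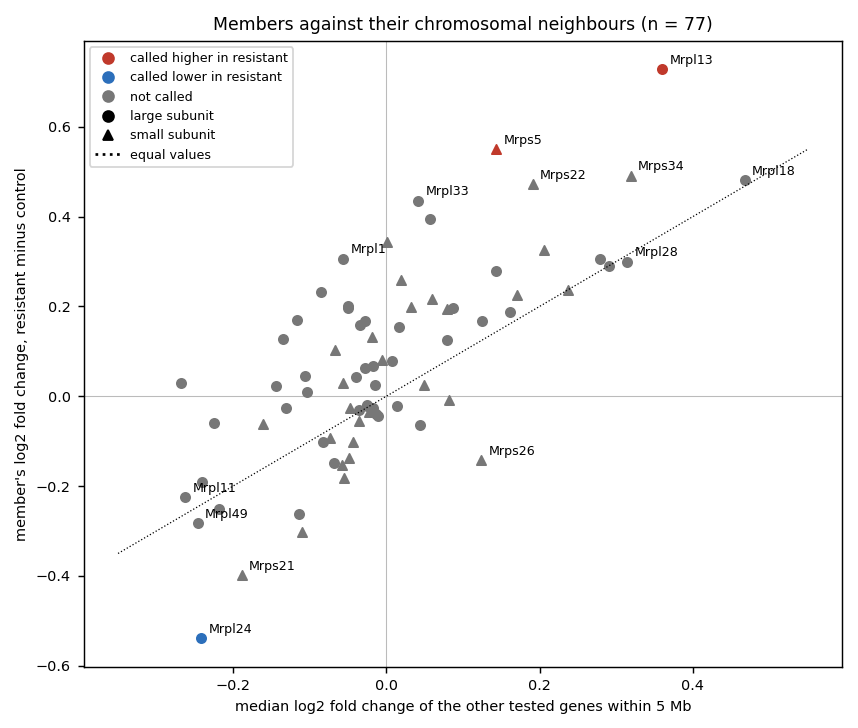
Log2 fold change of each tested member, resistant minus control (y axis), against the median log2 fold change of the other tested genes within 5 Mb (x axis), for 77 members. Circles are large and triangles small subunit members, colours give the call, and the dotted line marks equal values. Members with positive local medians lie mostly above 0, and Mrpl13, Mrps5 and Mrpl24 lie further from 0 than their neighbours.

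All 3 called members lay in stretches that differed in the same direction. Around Mrpl13, 44 neighbours had a median log2 fold change of 0.36, and 14 of them were called higher and 2 lower. Around Mrps5, 99 neighbours had a median of 0.14, with 12 called higher and 1 lower. Around Mrpl24, 130 neighbours had a median of -0.24, with 1 called higher and 16 lower. Over all tested genes 5.32% were called higher and 4.73% lower. Relative to its neighbours the log2 fold change was 0.37 for Mrpl13, 0.41 for Mrps5 and -0.30 for Mrpl24. For Mrpl18 the local median of 0.47 was close to its own 0.48. Mrpl1 and Mrps26 are among the 24 members that differed in sign from their local medians, here -0.06 and 0.12.

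Over the 17 chromosomes that carry a tested member, the members' median and the median of all tested genes had the same sign on 12 and opposite signs on 5, and they lay within 0.1 of each other on 10. On chromosome 6 all 6 tested members had positive log2 fold changes, with a median of 0.26 against 0.18 over all tested genes of that chromosome. The 8 members on chromosome 17 had a median of 0.20, with 7 positive, against 0.13 over all its tested genes. On chromosome 19, 4 of 5 members were negative, with a median of -0.22 against -0.23 over all its tested genes. The 5 members on chromosome 3 had a median of -0.19 against -0.16. On chromosome 11, which carries 11 members, the median was -0.02 against -0.03. Elsewhere the values lay apart: on chromosome 5 the 4 members had a median of 0.17 against -0.05, on chromosome 10 the 2 members had 0.27 against 0.04, on chromosome 8 the 2 members had 0.15 against -0.01, on chromosome 1 the 5 members had 0.07 against -0.07, and on chromosome 14 the 3 members had 0.13 against 0.00. Mrpl13 is the only member on chromosome 15, where the median over all tested genes was 0.21. The cause of the regional differences was not tested.

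Other proteins of the mitochondrial ribosome carry unrelated symbols. Of 5 such genes, 1 was called higher and 0 lower, beside 5.32% and 4.73% of all tested genes. The median log2 fold change was 0.12, with positive values in all 5. Ptcd3, a small subunit protein at the mRNA entrance, rose, with 2893 and 2656 normalized counts in resistant libraries against 1995 and 1901 in control libraries (0.51 ± 0.11, adjusted p = 0.0313, limma). Dap3, a GTP-binding small subunit protein, chosen after its values were seen, had 4342 and 4401 normalized counts in resistant libraries against 3806 and 3987 in control libraries (0.17 ± 0.10, adjusted p = 0.344, limma). In both genes the resistant libraries lay above the control libraries, as in 28.4% of all tested genes. Ptcd3 lies on chromosome 6.

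Genes that build and serve the mitochondrial ribosome fell into 4 lists with 0 or 1 called gene each, beside 10.1% of all tested genes. Among 25 assembly factors, 0 were called higher and 1 lower, with a median log2 fold change of 0.06. That median turned to -0.04 with resistant replicate 1 left out and to -0.06 with control replicate 1 left out, and was 0.16 and 0.12 with replicate 2 of the resistant or the control group left out. The gene that fell was Rbfa, an assembly factor of the small subunit, with 807 and 911 normalized counts in resistant libraries against 1224 and 1249 in control libraries (-0.53 ± 0.13, adjusted p = 0.0451, limma). Of 15 mitochondrial translation factors, none was called by limma, and the median was -0.06. At an unadjusted p under 0.05, 1 (6.67%) was higher and 0 lower, against 13.8% and 12.6% of all tested genes. The smallest p values were those of Mtfmt, which formylates the initiator methionyl-tRNA (0.45 ± 0.13, adjusted p = 0.0733, limma), and Pdf, the peptide deformylase (-0.63 ± 0.39, adjusted p = 0.351, limma). Among 20 mitochondrial aminoacyl-tRNA synthetases 1 was called higher and 0 lower, with a median of -0.03. That gene was Nars2, for asparagine, with 1724 and 1542 normalized counts in resistant libraries against 981 and 1014 in control libraries (0.71 ± 0.12, adjusted p = 0.0145, limma). Of 27 genes for mitochondrial DNA, transcription and RNA processing, none was called by limma, and the median was 0.10. At an unadjusted p under 0.05, 4 (14.8%) were higher and 2 (7.41%) lower, against the same 13.8% and 12.6% of all tested genes. The smallest p values there were those of Mterf2 (-0.77 ± 0.21, adjusted p = 0.0583, limma) and 1110008L16Rik, the RNase P subunit Prorp (-0.46 ± 0.14, adjusted p = 0.0832, limma).

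Among 9 regulators of mitochondrial biogenesis, 2 were called higher and 1 lower, beside 5.32% and 4.73% of all tested genes. Ppargc1a, the coactivator PGC-1alpha, had 1009 and 1088 normalized counts in resistant libraries against 193 and 341 in control libraries. Its log2 fold change was 2.03 ± 0.26 (adjusted p = 0.00405, limma). Myc, a transcription factor that drives ribosome production, had 11654 and 12057 normalized counts in resistant libraries against 6768 and 8683 in control libraries (0.63 ± 0.14, adjusted p = 0.0299, limma). Gabpa, the ETS factor that binds many promoters of nuclear genes for mitochondrial proteins, fell, with 3845 and 3631 normalized counts in resistant libraries against 5378 and 5152 in control libraries (-0.49 ± 0.10, adjusted p = 0.0263, limma). Nrf1 and Yy1, chosen after their values were seen, had log2 fold changes of -0.09 and 0.17, neither of them called. The groups did not overlap in the 3 called genes, as in 28.4% of all tested genes for higher and 28.3% for lower values.

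Several transcripts of mitochondrial DNA itself rose in resistant cells. Of the 13 mitochondrially encoded mRNAs 6 are listed at 0 in all 4 libraries (mt-Nd3, mt-Nd4l, mt-Co2, mt-Co3, mt-Atp6 and mt-Atp8). These zeros stand beside the very high counts of mt-Co1 given below, so they are doubtful as levels of expression. Their cause was not tested, and whether it also touches the 7 tested mRNAs is not known. Of the 7 tested, 6 were called higher and 0 lower, beside 5.32% and 4.73% of all tested genes, with a median log2 fold change of 0.84. For mt-Co1, the catalytic subunit of cytochrome oxidase, the level was 154303 and 170037 normalized counts in resistant libraries against 74664 and 68948 in control libraries (1.17 ± 0.14, adjusted p = 0.0034, limma). The complex I subunits mt-Nd5, mt-Nd2 and mt-Nd1 rose with log2 fold changes of 1.01, 0.81 and 0.84. The large rRNA of the mitochondrial ribosome, mt-Rnr2, was called higher, with 9814 and 9563 normalized counts in resistant libraries against 6561 and 5075 in control libraries (0.75 ± 0.14, adjusted p = 0.0171, limma). The small rRNA mt-Rnr1 had 4676 and 2821 normalized counts in resistant libraries against 2194 and 2543 in control libraries (0.62 ± 0.22, adjusted p = 0.125, limma). Without resistant replicate 1, 2 of the 7 mRNAs were called, at a median of 0.94, and without resistant replicate 2, 0 were called, at a median of 0.76. Set side by side, the 7 tested mRNAs read by the mitochondrial ribosome had a median log2 fold change of 0.84. The rRNAs of that ribosome lay at 0.75 and 0.62, and its nuclear-encoded proteins had a median of 0.04. The difference between these lists was not tested.

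**Figure D4:**
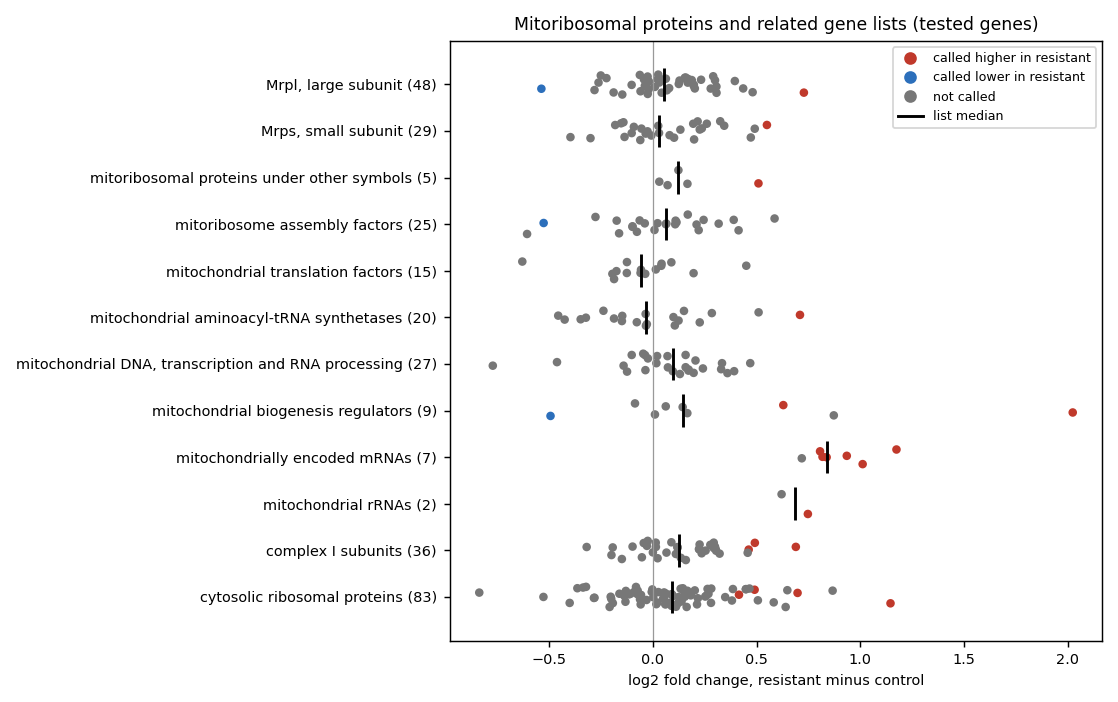
Log2 fold change, resistant minus control (x axis), of every tested gene in the large and small subunit and in 10 related lists (rows, with the number tested), with a bar at each list median. Red genes were called higher, blue lower and grey not called. The 7 tested mitochondrially encoded mRNAs, with a median of 0.84, stand apart on the plot from the large (0.05) and small (0.03) subunit proteins.

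The cytosolic ribosomal proteins and the nuclear-encoded subunits of respiratory complex I, whose other subunits the mitochondrial ribosome makes, served for comparison. Of 83 cytosolic ribosomal protein genes tested, 4 were called higher and 0 lower, with a median log2 fold change of 0.09. That median turned to -0.03 without resistant replicate 1 and to -0.02 without control replicate 1. It was 0.22 without resistant replicate 2 and 0.21 without control replicate 2. The called genes were Rps27l (0.70), Rpl10-ps3 (1.15), Rpl37 (0.49) and Rpl32 (0.41). These genes were taken by symbol, and Rpl10-ps3 carries a pseudogene symbol though it is annotated as protein-coding. Of 36 tested genes with the symbols of nuclear-encoded complex I subunits, 3 were called higher and 0 lower, with a median of 0.13. These were Ndufb9 (0.69), Ndufv2 (0.46) and Ndufa4 (0.49). The list was taken by symbol, and Ndufa4 is now placed in cytochrome oxidase, so not all 3 calls belong to complex I. The called shares were 4.82% and 8.33%, beside 3.90% for the mitochondrial ribosomal proteins and 10.1% of all tested genes. The differences between the lists were not tested. Ndufb9 and Rpl37, like Mrpl13, lie on chromosome 15. Of the 20 genes called in the related lists, 3 were still called without resistant replicate 1 (Ppargc1a, mt-Co1 and mt-Nd5) and 2 without resistant replicate 2 (Ppargc1a and Ndufb9), while all 20 were still called when either control library was left out. Without a control library, a gene's replicate spread comes only from the resistant pair. Over all tested genes the replicate differences of that pair had an SD of 0.306, against 0.453 for the control pair. Calls kept in fits without a control library are thus no separate support for the 20 genes. With no filter on low genes 1 of the 20 was called (mt-Co1), and the replicate block lost 7 (Gabpa, Ndufa4, Ndufv2, Ptcd3, Rbfa, Rpl32 and Rpl37). Rpl32 was also lost with the filter at 100, both other scalings, robust moderation and voom. Rbfa was lost with the filter at 100, Ndufa4 with scaling to total reads and voom, and Rpl37 with voom. Rpl10-ps3 averaged under 100 normalized counts, so it was not tested with that filter.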

How the data were processed

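The deposited values are on a log2 scale. Per the submitters' processing notes the authors used STAR and DESeq2 with mm10, and versions and settings are not given there. Raising 2 to a value and taking away 1 gave, in each library, whole multiples of a single step for 100% of values (tolerance 0.01 reads), which makes the table log2(reads / size factor + 1). Dividing by the step gave back the reads. Normalized counts are the unlogged values. Depth was 46999812 and 45666470 reads in resistant libraries and 49592054 and 46179416 reads in control libraries. Groups follow the source labels, and columns were matched by title.

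Symbols were joined on the Ensembl identifier without its version for 55144 genes, with gene types and exons from GENCODE M21 on GRCm38. The main test was limma 3.58.1 (R 4.3.3), run as lmFit followed by trended eBayes without a block, on the deposited values with their pseudocount of 1. It took genes averaging 10 or more normalized counts and was two-sided, with Benjamini-Hochberg adjustment over all 14238 genes at a threshold of 0.05. Fold changes on this scale understate those of low genes. The fit was tested on simulated reads with 1 assumed dispersion for all genes and 50 changed genes per fold. It called 52% of 1.5-fold, 74% of 2-fold and 98% of 4-fold changes, so a member not called can still differ by a small fold. Lists received no test of their own.

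The members, lists and tests were chosen with earlier results of these data known. Named members were those past the threshold, the 5 highest and 5 lowest log2 fold changes and the 3 highest levels per kb in each subunit, and those left untested. Lists gave up to 4 called genes per direction, or otherwise the 2 with the smallest p, and marker lists up to 2 with the highest mean. Other genes are marked as chosen after their values were seen, with some exceptions. Without the mark stand Krt14 and some other cell type markers, mt-Rnr1, the mitochondrial mRNAs not tested, overlapping genes and pseudogenes. Of 17 translation factors, Mtrfr and Mtres1 were not matched by symbol. Alternatives were other pseudocounts, filters and scalings, robust moderation, voom on the recovered reads, a replicate block, leaving out each library, subunits assigned by place in the ribosome, members without exon overlap, and values relative to neighbours.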

Additional observations from a re-analysis of the deposited data

How the results depend on the processing

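The 3 calls, Mrpl13, Mrps5 and Mrpl24, were made with pseudocounts of 0.5 and 8, a filter at 100, scaling to total reads, median centring, robust moderation and voom. With no filter 0 members were called higher and 0 lower, beside 14 at an unadjusted p under 0.05 and 1.16% of all genes called (126 higher and 185 lower). The adjusted p was then 0.0821 for Mrpl13, 0.0857 for Mrps5 and 0.126 for Mrpl24. The replicate numbers only name libraries, and deviations of same-numbered libraries had a correlation of -0.36 over 14238 genes. With the replicate block, 1 member (Mrpl13) was called higher and 0 lower, and adjusted p was 0.0781 for Mrps5 and 0.0522 for Mrpl24.

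Leaving out 1 library gave 0 to 10 members called higher and 0 to 3 called lower. Without resistant replicate 1 limma called none (3 at an unadjusted p under 0.05), without resistant replicate 2 only Mrpl13 was, and without control replicate 1 or 2 there were 6 higher and 2 lower, or 10 higher and 3 lower, calls. Over all genes those fits called 146 to 2074 higher and 234 to 1993 lower. The lone library is then assumed to vary like the other group, so the calls of these fits are no separate support. In each of these fits a smaller share of the members was called than of all tested genes. The large subunit median ranged from 0.016 to 0.14, the small subunit median from -0.0035 to 0.17, and the large minus small difference from -0.032 to 0.052; over members with no exon overlap that difference was -0.0087, and with subunits assigned by place it was -0.0014. Of the 77 tested members, 24 changed sign in at least 1 alternative, none of them called: 6 each with scaling to total reads, median centring and voom, and 8 to 11 when 1 library was left out. Among the members named by the rule these were Mrpl10 (-0.081 to 0.037 over the libraries left out, with 0.00022 without resistant replicate 2), Mrps17 (-0.33 to 0.021), Mrps6 (-0.22 to 0.10) and Mrps23 (-0.14 to 0.19, with -0.039 without control replicate 1). Mrps23 was also at -0.015 with scaling to total reads, -0.013 with voom and -0.0067 with median centring. The cause of these shifts was not tested.

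The members' replicate differences had SDs of 0.147 in resistant and 0.205 in control libraries on the log2 scale, which limits smaller differences, and reads that overlapping genes or pseudogenes share limit what can be said of single members.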
